A study of Drosophila melanogaster with 8 samples.

Results

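The genes described here build and adjust the fly neuromuscular junction, the synapse at which a motor neuron drives a muscle fiber. They were 10 genes whose symbol in the deposited count tables was GluRIIA, GluRIIB, GluRIIC, GluRIID, GluRIIE, Neto, dlg1, gbb, wit or tkv, out of 17562 genes in all, and 9 of them were among the 9903 genes with enough reads to be tested. Poly-A RNA was sequenced from thoraces of adult males, a body part filled mostly with flight and leg muscle. All flies carried tub-Gal80ts and the muscle driver dMef2-GAL4. The 4 control libraries came from a cross of this line to w[1118], and the 4 REPTOR[ACT] libraries from a cross to UAS-REPTOR[ACT], which encodes an active form of the transcription factor REPTOR. Crosses and young males were kept at 18 °C, where Gal80ts holds GAL4 silent, with 3 to 4 days of that time after collection, and were then moved to 29 °C for 4 days. These times are from the labels, and the study's methods give a somewhat longer wait before the shift. RNA came from 5 to 6 thoraces. The driver acts in muscle, while the RNA of the whole thorax also holds transcripts of neurons, glia, fat body and other cells, so that in these bulk samples fewer cells of a type and less RNA per cell cannot be told apart. The labels do not say that replicates came from separate crosses, and the p-values measure the spread between these libraries, whatever its source.

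Transmission at this synapse uses glutamate. In the larval body wall, where it has been studied most, each postsynaptic receptor is a tetramer that holds the essential subunits GluRIIC, GluRIID and GluRIIE together with either GluRIIA or GluRIIB, and the choice between the last pair sets how long the channel stays open. Neto is an auxiliary protein that receptors need in order to cluster, and Dlg1 is the membrane scaffold that organizes the postsynaptic side. Muscle also signals back to the neuron: it secretes the BMP ligand Glass bottom boat (gbb), which binds the type II receptor Wishful thinking (wit) and the type I receptors Thickveins (tkv) and Saxophone on the motor neuron, and the resulting phosphorylated Mad lets the synapse grow with the muscle.

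Of the 9 genes tested, GluRIID rose and GluRIIC and GluRIIE fell with REPTOR[ACT], so that the essential subunits of one receptor moved in opposite directions. The alternative subunit GluRIIA, the auxiliary protein gene Neto, the scaffold gene dlg1 and the BMP genes gbb, wit and tkv did not pass the test in this fit without pairing. In the fit with a block for the replicate number tkv was called higher as well (log2 fold change 0.18, adjusted p = 0.0089), which made 2 members higher in place of 1. A gene "rose" or "fell" where the Benjamini-Hochberg adjusted p of edgeR's quasi-likelihood test, adjusted over all 9903 genes, was under 0.05. By this rule 33.3% of the tested members changed, against 44.2% of all genes tested. The 1 member that rose stands beside 24.8% of all genes that rose, and the 2 that fell beside 19.4% that fell. In 3 members the values of the groups did not overlap, which held for 41.9% of all genes tested. The study also required a log2 fold change beyond 1 in either direction; 0 of the 9 members passed this too, against 6.88% of all genes tested, and the largest change of a member under any alternative fit was 0.85. The median log2 fold change of the 9 genes was 0.015, and that of all genes was −0.0090. These shares are near or below those of all genes and are no result about the junction genes as a set, so what follows describes them one by one.

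Levels are counts per 1e6 reads (CPM) with TMM scaling, which sets each library's size so that most genes balance, and means are given ± SD with n = 4 libraries per group. Taking reads as 4 times the deposited values, the libraries held 26.79 to 50.03 M reads (control) and 29.07 to 42.74 M reads (REPTOR[ACT]). REPTOR itself rose from 105.5 ± 17.8 to 300.3 ± 28.4 CPM. Mitochondrial reads took up 30.4 to 42.2% of control and 31.6 to 34.1% of REPTOR[ACT] libraries, and the calls of all 9 genes were the same with mitochondrial genes left out. Muscle markers were abundant, with a summed level of 29650 to 31876 CPM in control and 36849 to 40684 CPM in REPTOR[ACT] libraries, and 6 of 14 rose while 1 fell. The other 7 were not called. Past a log2 limit of 1 were Act88F (382 to 3360 CPM, log2 fold change 3.14) and Mlc2 (1.12), both higher. Mf was lower past that limit (7984 to 2375 CPM, −1.75). Of all genes tested 6.88% passed it. Mhc rose by 0.78 on the log2 scale. Neuron and presynaptic markers summed to 2501 to 2871 CPM and 2296 to 2655 CPM, with 0 of 23 higher and 6 lower. The share called was 50% of muscle and 26.1% of neuron and presynaptic markers, beside 44.2% of all genes tested. None of the defining markers of either tissue was at 0.

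**Figure D1:**
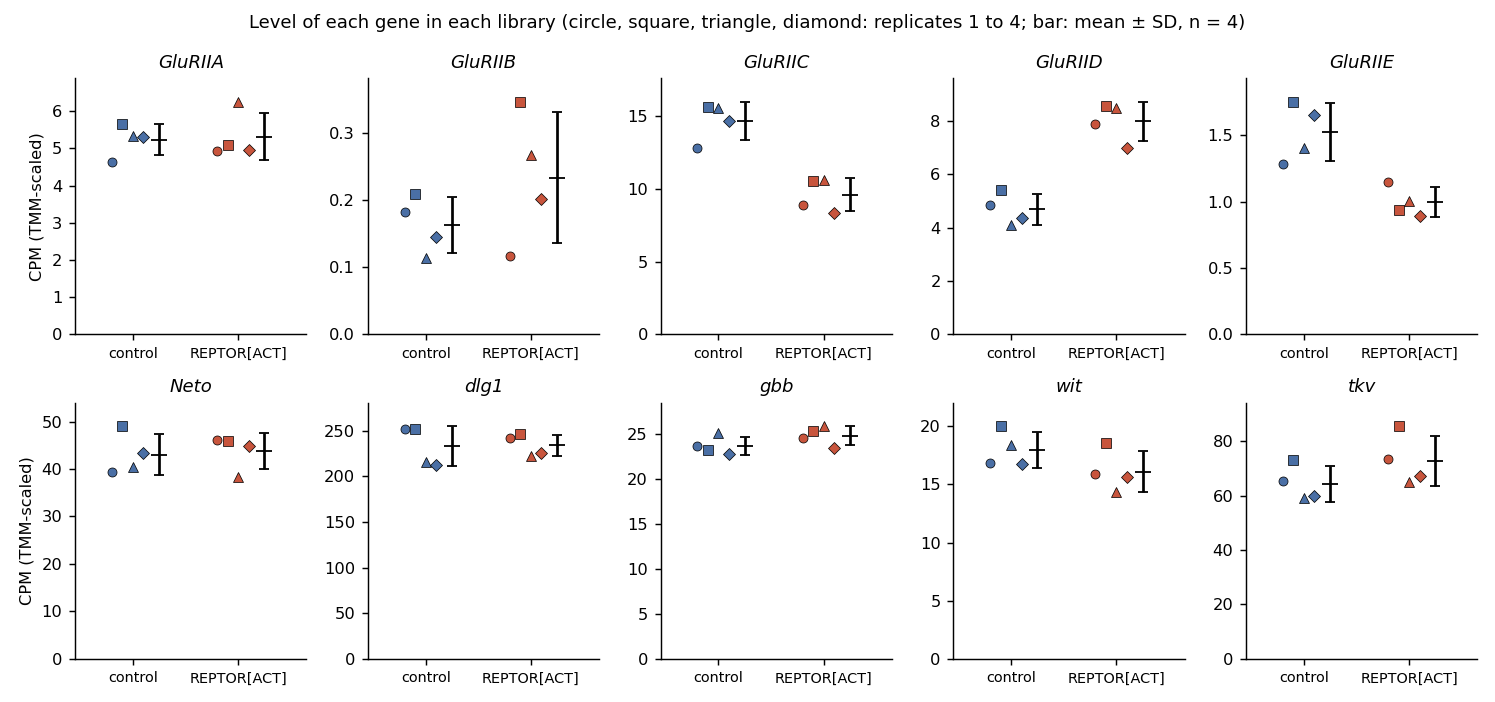
Level of each of the 10 genes in CPM (vertical axis, starting at 0) in each control (blue) and REPTOR[ACT] (red) library, with replicates 1 to 4 as circle, square, triangle and diamond and the mean ± SD (n = 4) beside them. The groups separate without overlap for GluRIIC (lower), GluRIID (higher) and GluRIIE (lower), while those of the other 7 genes overlap.

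GluRIIC (FBgn0046113, chromosome 2L, 914086 to 917805 on the plus strand in BDGP6.54) encodes an essential subunit. Its level in control replicates 1 to 4 was 12.9, 15.7, 15.6 and 14.7 CPM, and in REPTOR[ACT] replicates 1 to 4 it was 8.92, 10.5, 10.6 and 8.36 CPM. All REPTOR[ACT] libraries lay below all control libraries. The mean fell from 14.7 ± 1.31 to 9.60 ± 1.14 CPM, by 0.62 on the log2 scale (SE 0.0985, adjusted p = 3.6e-04), which puts the REPTOR[ACT] level at 0.570 to 0.745 times that of control (± 1.96 SE). It remained called with each library left out in turn, with an adjusted p of 3.7e-04 to 0.0020.

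GluRIID (FBgn0028422, 3R, 20648595 to 20652450, minus strand), the essential subunit that rose, was at 4.86, 5.41, 4.11 and 4.36 CPM in control and at 7.88, 8.57, 8.49 and 6.97 CPM in REPTOR[ACT] replicates 1 to 4. The lowest REPTOR[ACT] library stood above the highest control library. The rise from 4.68 ± 0.574 to 7.98 ± 0.738 CPM was 1.69-fold (log2 fold change 0.76 with an SE of 0.108, adjusted p = 1.6e-04), with an interval of 1.46 to 1.96 times. Leaving out each library gave an adjusted p of 1.3e-04 to 9.6e-04.

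GluRIIE (FBgn0051201, 3R, 20644154 to 20648716, minus strand) lies directly next to GluRIID and encodes the remaining essential subunit. It was the least abundant of them, at 1.28, 1.75, 1.41 and 1.66 CPM in control and 1.15, 0.937, 1.003 and 0.893 CPM in REPTOR[ACT] replicates 1 to 4. These levels rest on 37 to 84 reads per control and 27 to 49 reads per REPTOR[ACT] library. The groups did not overlap, although control replicate 1 and REPTOR[ACT] replicate 1 were close. The mean fell from 1.52 ± 0.217 to 0.996 ± 0.112 CPM, by 0.62 on the log2 scale (SE 0.171, adjusted p = 0.0125, interval 0.517 to 0.824 times). With the deposited values rounded in place of the whole reads recovered from them, the call was lost (log2 fold change −0.56, adjusted p = 0.121). With each library left out the adjusted p was 0.0102 to 0.0459.

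GluRIIE and GluRIID point the same way along chromosome 3R and share 122 exon bases, and GluRIIE shares a further 126 exon bases with Lrrk, a kinase gene on the opposite strand. The sources used here do not say how the counting treated strand and shared bases, so the origin of reads in these bases cannot be told apart. If reads were spread evenly along exons, the bases shared with GluRIID would carry 0.185 CPM of GluRIID reads in control and 0.316 CPM in REPTOR[ACT] libraries. Those shared with Lrrk would carry 0.441 and 0.348 CPM. Lrrk itself fell from 28.1 to 22.1 CPM (log2 fold change −0.34, adjusted p = 9.2e-04). These amounts are not small beside the 1.52 and 0.996 CPM of GluRIIE, whereas GluRIIE reads on the bases shared with GluRIID would come to 0.0540 and 0.0353 CPM beside 4.68 and 7.98 CPM. The part of shared bases in the change of GluRIIE was not tested.

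GluRIIA (FBgn0004620, 2L, 5555072 to 5558994, plus strand) encodes the subunit of long channel openings. Control replicates 1 to 4 were at 4.64, 5.66, 5.32 and 5.31 CPM, and REPTOR[ACT] replicates 1 to 4 at 4.93, 5.10, 6.25 and 4.96 CPM. The groups overlapped throughout, with REPTOR[ACT] replicate 3 above the rest. The means were 5.23 ± 0.425 and 5.31 ± 0.633 CPM (log2 fold change 0.02 with an SE of 0.107, adjusted p = 0.923, interval 0.874 to 1.17 times).

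GluRIIB (FBgn0020429, 2L, 5559342 to 5563502, plus strand), which starts 347 bases beyond the end of GluRIIA and encodes the subunit that competes with it, was close to the limit of detection. It had 6, 10, 3 and 5 reads in control and 5, 10, 8 and 7 reads in REPTOR[ACT] replicates 1 to 4, against the limit of 3 reads that a count of 0 allows (counting error only). This is a level of 0.183, 0.209, 0.114 and 0.145 CPM in control and 0.117, 0.347, 0.267 and 0.202 CPM in REPTOR[ACT] libraries. The groups overlapped, and the gene had too few reads to be tested. A fit without the filter on low counts gave a log2 fold change of 0.44 with an adjusted p of 0.483, so that no change in GluRIIB was detected at this depth. The size of change that could have been detected was not computed.

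Because GluRIIA and GluRIIB compete for the same place in the receptor, their ratio is a quantity of its own. The log2 ratio of GluRIIA to GluRIIB reads was 4.66, 4.76, 5.54 and 5.19 in control and 5.39, 3.88, 4.55 and 4.62 in REPTOR[ACT] replicates 1 to 4. GluRIIA reads exceeded GluRIIB reads in all 8 libraries, and the groups overlapped. The mean of the log2 ratio was 5.04 ± 0.408 in control and 4.61 ± 0.620 in REPTOR[ACT] libraries, a difference of −0.43 that did not pass the test (2-sided exact permutation test over 8 libraries, p = 0.257, smallest possible p = 0.0286).

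The number of GluRIID reads per read of each other essential subunit was higher in all REPTOR[ACT] libraries than in all control libraries. These ratios were formed after the changes of single genes had been seen and are given as a description. GluRIID had 0.378, 0.345, 0.263 and 0.296 reads per GluRIIC read in control and 0.884, 0.813, 0.801 and 0.834 in REPTOR[ACT] replicates 1 to 4. The mean went from 0.321 ± 0.0507 to 0.833 ± 0.0368, so that GluRIID came close to GluRIIC in REPTOR[ACT] thoraces. GluRIID reads per GluRIIE read went from 3.10 ± 0.491 to 8.07 ± 0.976. The 2 subunits that fell had the same mean ratio to each other in both groups, with 9.73 ± 1.04 GluRIIC reads per GluRIIE read in control and 9.73 ± 1.54 in REPTOR[ACT] libraries. Both ratios to GluRIIE are limited by its shared bases. If spread evenly, GluRIID and Lrrk reads there would come to 0.185 and 0.441 CPM in control, where GluRIIE was at 1.52 CPM. In REPTOR[ACT] libraries they would come to 0.316 and 0.348 CPM beside 0.996 CPM. Ratios without these bases were not formed. GluRIIA reads per GluRIIC read went from 0.356 ± 0.00987 to 0.555 ± 0.0509.

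**Figure D2:**
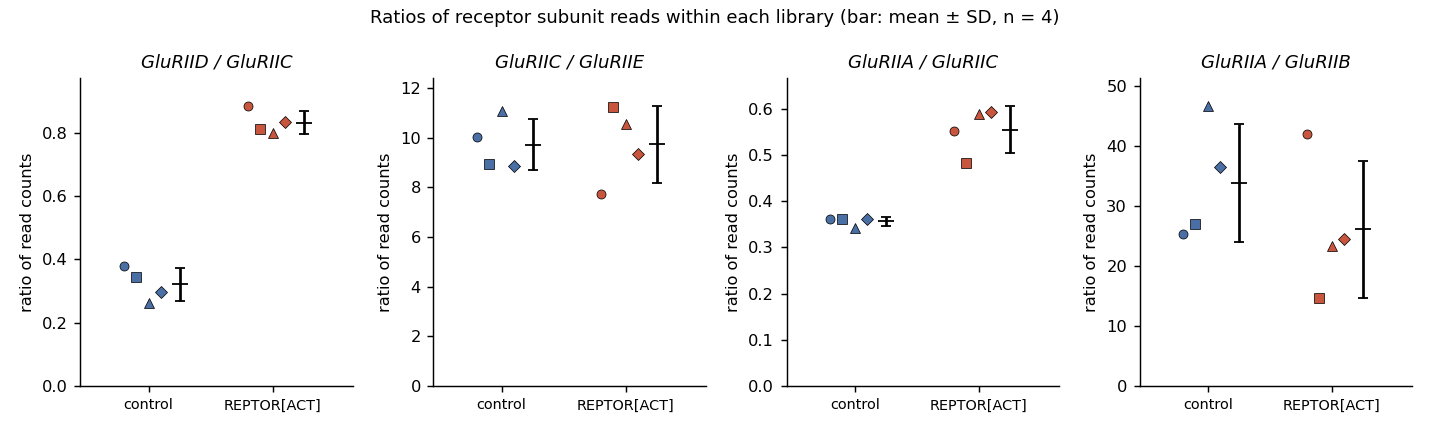
Ratio of the read counts of 2 receptor subunits within each library (vertical axis, no unit, starting at 0; symbols and colors for replicates and groups as for the levels, mean ± SD, n = 4). GluRIID per GluRIIC read lies between 0.263 and 0.378 in control and between 0.801 and 0.884 in REPTOR[ACT] libraries, whereas GluRIIC per GluRIIE and GluRIIA per GluRIIB overlap between the groups.

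Neto (FBgn0265416, X, 13445903 to 13527282, plus strand), needed for receptor clustering, was at 39.3, 49.1, 40.5 and 43.4 CPM in control and 46.2, 46.0, 38.3 and 44.8 CPM in REPTOR[ACT] replicates 1 to 4. Libraries of both groups mixed, and the lowest was a REPTOR[ACT] library. The means were 43.1 ± 4.36 and 43.8 ± 3.73 CPM (log2 fold change 0.02 with an SE of 0.0852, adjusted p = 0.846, interval 0.905 to 1.14 times).

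The scaffold gene dlg1 (FBgn0001624, X, 11369665 to 11409776, plus strand), the fly member of the PSD-95 family, was the most abundant of the 10. Control replicates 1 to 4 were at 252, 252, 216 and 212 CPM and REPTOR[ACT] replicates 1 to 4 at 242, 246, 222 and 225 CPM. Replicates 1 and 2 were higher than replicates 3 and 4 in both groups, which otherwise overlapped. The means of 233 ± 22.1 and 234 ± 12.0 CPM gave a log2 fold change of 0.0048 (SE 0.0756, adjusted p = 0.967, interval 0.905 to 1.11 times). The gene has 21 annotated transcripts, and a gene count does not separate them.

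The BMP genes differed less than the called subunit genes, and none was called in the fit without pairing. Each differed in the same direction in all 4 pairs of same-numbered libraries. How often this holds among all genes was not counted, so it is no result about these genes. The ligand gene gbb (FBgn0024234, 2R, 23851562 to 23853247, plus strand) was at 23.6, 23.2, 25.1 and 22.8 CPM in control and 24.5, 25.3, 25.9 and 23.5 CPM in REPTOR[ACT] replicates 1 to 4. The groups overlapped. The means of 23.7 ± 0.981 and 24.8 ± 1.05 CPM differed by 0.07 on the log2 scale (SE 0.0614, adjusted p = 0.407, interval 0.963 to 1.14 times).

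The type II receptor gene wit (FBgn0024179, 3L, 4064152 to 4071717, minus strand) was at 16.8, 20.01, 18.4 and 16.7 CPM in control and 15.9, 18.5, 14.4 and 15.6 CPM in REPTOR[ACT] replicates 1 to 4. REPTOR[ACT] replicate 2 lay above 3 of the 4 control libraries. The log2 fold change was −0.16 (18.0 ± 1.56 against 16.1 ± 1.74 CPM, SE 0.0913, adjusted p = 0.175, interval 0.790 to 1.01 times). A block for the replicate number gave an adjusted p of 0.0634. At the junction wit acts in motor neurons. The summed neuron and presynaptic markers averaged 2671 CPM in control and 2454 CPM in REPTOR[ACT] libraries, and their part in the value of wit was not tested.

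The type I receptor gene tkv (FBgn0003716, 2L, 5219000 to 5271384, minus strand), which also serves the BMP ligand Dpp in other tissues, was at 65.4, 73.4, 59.2 and 59.8 CPM in control and 73.4, 85.7, 65.2 and 67.4 CPM in REPTOR[ACT] replicates 1 to 4. The groups overlapped, but each REPTOR[ACT] library lay above the control library of its number, by 7.96, 12.3, 6.05 and 7.57 CPM. Without the pairing tkv did not pass the test (64.4 ± 6.57 to 72.9 ± 9.18 CPM, log2 fold change 0.18 with an SE of 0.0970, adjusted p = 0.162). Fitted with a block for the replicate number, it was called higher (0.18, adjusted p = 0.0089). It shares 54 exon bases with TpnC25D, a troponin C gene on the opposite strand at 27.5 and 30.3 CPM (log2 fold change 0.14, adjusted p = 0.075), which if spread evenly would carry 1.19 and 1.31 CPM.

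**Figure D3:**
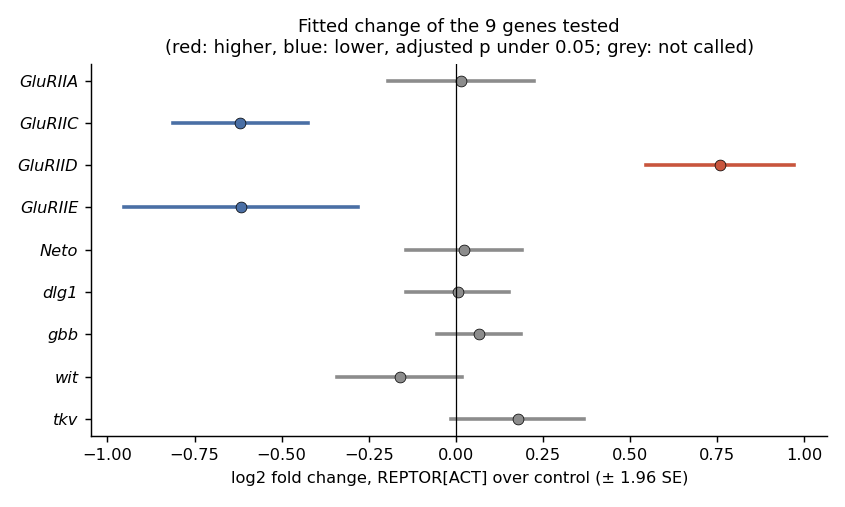
Fitted log2 fold change of REPTOR[ACT] over control (horizontal axis) for the 9 genes tested, as points with lines of ± 1.96 SE, in red for higher, blue for lower and grey for not called. GluRIID stands at 0.76 and GluRIIC and GluRIIE at −0.62, while the lines of the other 6 genes cross 0.

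Levels can be compared between genes only per length, as reads per kilobase of merged exon and 1e6 reads (RPKM), with exon lengths from the BDGP6.54 annotation. On this length-scaled level the control order was dlg1 (20.2), tkv (14.5), gbb (14.0), Neto (5.22), GluRIIC (4.89), wit (4.27), GluRIIA (1.61), GluRIID (1.52), GluRIIE (0.443) and GluRIIB (0.0552 RPKM). In RNA of the whole thorax, transcripts of the scaffold, the ligand and a BMP receptor thus stood well above those of any receptor subunit. The cells that these transcripts came from were not separated, so this is no order within the junction. Neighbours whose ranges over the 4 libraries overlapped were tkv and gbb, Neto and GluRIIC, GluRIIC and wit, and GluRIIA and GluRIID. Ranges alone do not put these in order, and levels of neighbours within the same library were not compared. In REPTOR[ACT] libraries GluRIIC dropped to 3.20 RPKM, below wit (3.82 RPKM), with ranges that overlapped. GluRIID reached 2.59 RPKM and stood above GluRIIA (1.63 RPKM) without overlap, where their control ranges had overlapped. The ranks of all 10 genes were the same with the longest transcript as length or with total library size as scale.

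**Figure D4:**
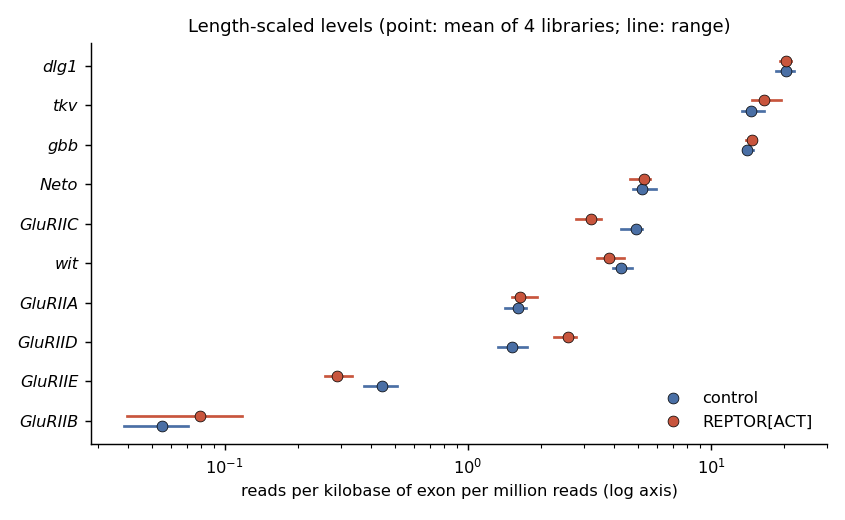
Length-scaled level of each gene in RPKM (horizontal log axis), as the mean (point) and range (line) of 4 control (blue) and 4 REPTOR[ACT] (red) libraries. The levels run from 0.0552 RPKM for GluRIIB to 20.2 RPKM for dlg1 in control, and GluRIID and GluRIIA overlap in control but not in REPTOR[ACT] libraries.

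Summed over the 5 subunits, the length-scaled receptor level was 8.52 ± 0.645 RPKM in control and 7.79 ± 0.772 RPKM in REPTOR[ACT] libraries. GluRIIC took 57.4 ± 2.15% of this sum in control and 41.0 ± 1.13% in REPTOR[ACT] libraries, GluRIID 17.9 ± 2.21% and 33.3 ± 1.05%, and GluRIIE 5.18 ± 0.465% and 3.74 ± 0.547%. GluRIIA held 18.9 ± 0.349% and 21.0 ± 1.57%. The share of GluRIIE may include reads of the bases it shares with GluRIID and Lrrk. Transcripts of the subunits that a receptor needs together were not level with each other in either group, and the composition of the pool differed between the groups mainly through GluRIIC and GluRIID.

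Genes that work with these were examined in lists taken from textbook knowledge, but drawn up with earlier results of these data known. Each list is described by its counts beside the shares of all genes, and the counts are no test of a list. Of 34 tested genes of the BMP and activin pathways other than the members, 4 rose and 8 fell. These 35.3% stood beside 44.2% of all genes tested, and the median log2 fold change of the list was −0.11. At the receptors, the type II receptor gene put rose from 53.9 ± 2.63 to 62.9 ± 0.712 CPM (log2 fold change 0.22, adjusted p = 0.0064), whereas the type I receptor gene sax did not pass the test (−0.11, adjusted p = 0.182). Among the transducers, the Smad gene Mad fell from 49.1 ± 4.88 to 39.1 ± 2.46 CPM (−0.33, adjusted p = 0.0056). Mad libraries did not overlap between the groups. Its partner Med was at −0.15 (adjusted p = 0.134), and was called lower under the replicate block (adjusted p = 0.048). The inhibitory Smad gene Dad, a common readout of BMP signalling, was level at 47.7 ± 5.24 and 47.2 ± 4.14 CPM (log2 fold change −0.02, adjusted p = 0.887).

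The glypican gene dlp, which binds ligands at the cell surface, showed the largest change of that list that passed the test, at 8.12, 7.03, 6.998 and 6.65 CPM in control and 15.3, 13.4, 13.04 and 12.01 CPM in REPTOR[ACT] replicates 1 to 4 (log2 fold change 0.90, SE 0.0944, adjusted p = 1.5e-05). The other fly glypican gene, dally, fell instead (−0.31, adjusted p = 0.0032). Also higher were tok, a protease gene of the Tolloid family (0.67), and shn, a nuclear partner of Mad (0.37). Also lower were kay, the fly Fos gene (−0.43), Smurf, a ubiquitin ligase that restrains the pathway (−0.29), and mav, a ligand gene of the family (−0.30), together with the endocytic adaptor gene Dap160, the BMP antagonist gene sog and the furin protease gene Fur1. Scaled by total library size, 4 genes of the list were lower, and with the replicate block 13 were.

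Of 34 tested postsynaptic and muscle membrane genes, 10 rose and 5 fell (44.1%, beside 44.2% of all genes tested). Their median log2 fold change was −0.05. The 2 that passed the log2 limit of 1 encode scaffold proteins known to bind each other and Dlg1 in a complex at the larval junction. The MAGUK gene metro was at 37.9, 45.8, 41.7 and 43.5 CPM in control and 100.4, 108.3, 92.7 and 92.7 CPM in REPTOR[ACT] replicates 1 to 4 (log2 fold change 1.22, SE 0.0765, adjusted p = 3.2e-07). The Lin-7 gene veli was at 34.8, 33.7, 39.7 and 43.8 CPM in control and 76.8, 77.5, 72.8 and 78.4 CPM in REPTOR[ACT] replicates 1 to 4 (1.01, SE 0.0829, adjusted p = 2.4e-06). Neither overlapped between the groups, while the interval of dlg1 was 0.905 to 1.11 times. The log2 fold change of veli was just under 1 with DESeq2 (0.997), with RLE size factors as the scaling (0.997) and with mitochondrial genes left out (0.990). With each library left out it was 0.967 to 1.09. A further scaffold gene, CASK, was not called (−0.05, adjusted p = 0.530). The exons of metro share 289 bases with CG7737 on the opposite strand, a gene at 7.51 CPM.

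Among genes of the muscle cytoskeleton and adhesion at the junction, those that rose included Msp300, a giant nesprin (1215 ± 47.4 to 2246 ± 106 CPM, log2 fold change 0.89, adjusted p = 4.8e-07), the filamin gene cher (0.60) and the neuroligin gene Nlg1 (0.43). The polarity gene l(2)gl rose by 0.78 on the log2 scale, and Dg (dystroglycan), Grip (a PDZ adaptor), cora (a protein of the membrane skeleton) and CaMKII (a calcium-dependent kinase) also rose, by 0.23 to 0.36. Lower were dock, an SH2/SH3 adaptor (−0.36, adjusted p = 5.9e-04), its partner kinase gene Pak (−0.21), the polarity scaffold gene scrib (−0.19), the postsynaptic synaptotagmin gene Syt4 (−0.29) and the teneurin gene Ten-a (−0.19). The count of 5 lower genes depended on single libraries: it was 3, 1 and 2 without control replicates 1, 2 and 3, and 2 and 3 without REPTOR[ACT] replicates 1 and 3. It was 1 with total library size.

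Of 11 further glutamate receptor genes, 1 rose and 2 fell (27.3%, beside 44.2% of all genes tested). Their median log2 fold change was −0.19. The one that rose, Grik, encodes a kainate-type subunit, with a log2 fold change larger than that of any muscle subunit. It went from 54.7, 61.7, 62.8 and 63.2 CPM in control to 138.1, 153.8, 139.0 and 148.5 CPM in REPTOR[ACT] replicates 1 to 4. All REPTOR[ACT] libraries lay far above all control libraries (log2 fold change 1.26, SE 0.0674, adjusted p = 1.1e-07). The kainate-type gene clumsy (−0.22, adjusted p = 0.0249) and the glutamate-gated chloride channel gene GluClalpha (−0.23, adjusted p = 0.0374) fell. The AMPA-type genes GluRIA (−0.09) and GluRIB (−0.14), the NMDA receptor genes Nmdar1 (0.06) and Nmdar2 (−0.19) and the kainate-type gene CG11155 (0.17) were not called, nor were KaiR1D and Ekar, also kainate-type, and mGluR, the metabotropic receptor gene. CG11155 was called higher with the replicate block (0.17, adjusted p = 0.0124) and mGluR lower (−0.27, adjusted p = 0.0069). The count of 2 lower genes was 1 without control replicate 1 or 4 or REPTOR[ACT] replicate 1, and 0 without control replicate 2, without REPTOR[ACT] replicate 3 or 4, or with total library size.

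**Figure D5:**
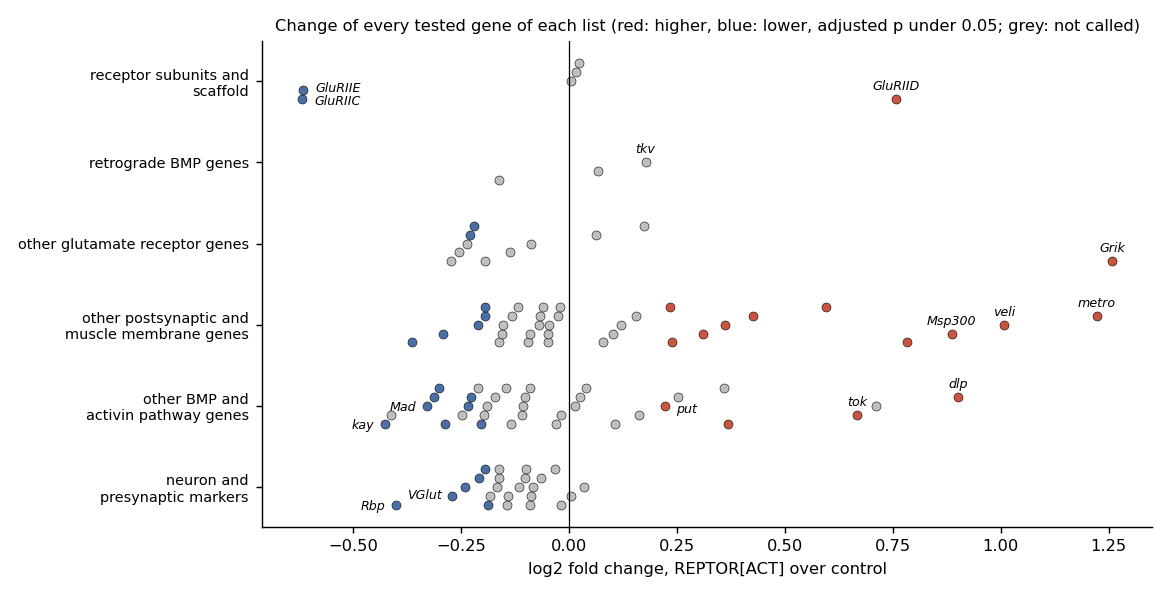
Log2 fold change of REPTOR[ACT] over control (horizontal axis) of each tested gene (point) in 6 gene lists (rows; vertical offsets within a row only separate the points), in red for higher, blue for lower and grey for not called. Grik (1.26), metro (1.22) and veli (1.01) lie beyond GluRIID (0.76), and the neuron and presynaptic markers hold no gene that rose.

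On the neuronal side, 26.1% of 23 markers were called, against 44.2% of all genes tested, and their median was −0.14. Of these markers 6 fell, beside 19.4% of all genes, and 0 rose, beside 24.8% (0 at an unadjusted p under 0.05, and 0 with DESeq2 or limma-voom). Those that fell were Rbp (−0.40, adjusted p = 5.4e-04) and Liprin-alpha (−0.19), both of the active zone, VGlut, the vesicular glutamate transporter of motor neurons (66.3 ± 4.64 to 55.0 ± 3.54 CPM, −0.27, adjusted p = 0.0083), Snap25 and nSyb of the release machinery, and the RNA-binding protein gene fne (−0.24). The pan-neuronal gene elav was not called (0.03, adjusted p = 0.688). The count was 3 without control replicate 2 or 3 or REPTOR[ACT] replicate 1, 3 or 4, 2 with total library size, and 11 with the replicate block.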

How the data were processed

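RNA-seq of 4 control and 4 REPTOR[ACT] thorax libraries was analysed, grouped by the genotype in the labels. Per the study's methods the authors prepared poly-A libraries (KAPA mRNA HyperPrep), divided them into 4 pools, sequenced single reads on an Illumina NextSeq and mapped them with STAR 2.7.2b. Their reference was FlyBase dmel r6.30, and their test DESeq2 1.34.0. The labels name another kit and a mouse build (mm10), although the reads are from fly. The sources used here do not state which program counted reads, or how strand and multi-mapping reads were handled. What the authors deposited is 1 expected count for each gene and library, not scaled to library size. All values were multiples of 0.25 and were multiplied by 4, after which 100% in each library were whole (within 1e-06). That these are reads summed over the pools is inferred from the values.

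Genes with few reads were removed by filterByExpr (at least 10 reads in a library of median depth, 15 in total) and fitted with edgeR 4.0.16 (TMM, robust quasi-likelihood, no covariate, common biological coefficient of variation 0.120) on all 8 libraries. GluRIIB did not pass the filter. Each SE came from the F statistic and the fitted change. The intervals of ± 1.96 SE use the normal quantile and are somewhat narrower than the F test implies. The test was checked on simulated data. Software was Python 3.11.15 (matplotlib 3.10.9, pandas 2.3.3, scipy 1.17.1, numpy 2.4.6) and R 4.3.3 (DESeq2 1.42.0, limma 3.58.1). Positions, exon lengths and overlaps came from the BDGP6.54 annotation, to which 17506 of 17562 identifiers were matched. Of 36 postsynaptic genes listed 34 were matched, and of 36 BMP and activin genes 34 were tested. The members and gene lists were chosen with earlier results of these data known. Named genes (54) were the members, their paralogues and receptor partners, REPTOR, and of each list the genes called past a log2 limit of 1 and up to 3 called genes with the smallest adjusted p in each direction. Other list genes were picked by their values.

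To see whether replicate numbers pair the samples, each library's deviation from its group mean was correlated with that of its counterpart. The correlation was 0.138, 0.433, 0.220 and 0.137 for replicates 1 to 4, all above 0.1. For replicates 3 and 4 a differently numbered library correlated about as well or better (0.221). Whether the numbers pair the samples is therefore not settled. The test behind the reported calls has no block for the replicate number, and the fit with the block is an alternative, given where it changes a call. What a shared number stands for is not in the labels. Pairs of libraries within a group differed by far more than counting error, so none was counted as a copy. Alternatives were DESeq2, limma-voom, other scalings and filters, rounding of the deposited values, the replicate block and leaving out each library.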

Additional observations from a re-analysis of the deposited data

Results flagged for a closer look

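In groups of 4 libraries, 6 values stood apart from the others of their group (the gap to the nearest value, divided by the range of the group and given in parentheses, was above Dixon's limit), among 110 groups examined; chance flags about 1 in 20 groups. GluRIIA in REPTOR[ACT] replicate 3 was the highest of its group at 6.25 CPM (0.870), and without that library its log2 fold change was −0.07 (adjusted p = 0.617 by edgeR's quasi-likelihood test). The tok value of 133.6 CPM was also that of REPTOR[ACT] replicate 3 (0.959). Grik in control replicate 1 was the lowest of its group at 54.7 CPM (0.830). In REPTOR[ACT] replicate 2, Mf, the myofilin gene, was the highest of its group at 2692 CPM (0.983), as were GluRIB at 10.3 CPM (0.850) and mGluR at 13.6 CPM (0.858). Without that library mGluR was called lower (log2 fold change −0.40, adjusted p = 0.014 by edgeR).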

How the results depend on the processing

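Across 17 alternative fits, GluRIIC and GluRIID remained called in the same direction in all, GluRIIE in 16, and GluRIIA, Neto, dlg1, gbb and wit were not called in any. No call changed direction; the differences of GluRIIA, Neto, dlg1 and Dad, all close to 0 and never called, changed sign in some fits (ranges −0.07 to 0.07, −0.02 to 0.11, −0.03 to 0.06 and −0.05 to 0.06). With the deposited values rounded, 1 member was lower in place of 2, GluRIIE being lost (log2 fold change −0.56, adjusted p = 0.121 by edgeR). With the replicate block 2 members were higher in place of 1, tkv being added (0.18, adjusted p = 0.0089); 13 of the BMP and activin genes were lower in place of 8, and 2 of the other glutamate receptor genes higher in place of 1. With total library size the lower counts were 4 of the BMP and activin genes, 1 of the postsynaptic genes (5 with TMM) and 0 of the other glutamate receptor genes (2 with TMM); scrib (−0.18), Pak (−0.19), clumsy (−0.20) and GluClalpha (−0.22) lost their calls. The causes were not tested. Leaving out each library in turn gave 1 member higher and 2 lower each time, 1 to 5 postsynaptic genes lower and 0 to 3 other glutamate receptor genes lower. The difference in the GluRIIA to GluRIIB ratio (log2 of reads) was −0.69 to −0.19 with each library left out (exact permutation p from 0.0571 to 0.514, where 0.0571 is the smallest possible), and its p was 0.375 with the replicate block (exact sign-flip permutation of 4 pairs, smallest possible 0.125); neither design can pass 0.05, so these p-values say nothing about stability. The block changed no other call of a member. Depth limits GluRIIB, at 3 to 10 reads per library, and GluRIIE, at 27 to 84 reads.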

Other observations

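Glia take up and recycle synaptic glutamate, and the glial genes examined went both ways. Gs2, a glutamine synthetase, rose from 672 ± 85.7 to 948 ± 105 CPM (n = 4 each, log2 fold change 0.50, adjusted p = 0.0022 by edgeR's quasi-likelihood test). Eaat1, the glial glutamate transporter gene, was called higher (0.20, adjusted p = 0.0262), but not without control replicate 1 or 4 or REPTOR[ACT] replicate 3 or 4 (adjusted p up to 0.0719). Eaat2, a related transporter gene, fell from 92.9 ± 2.60 to 70.7 ± 4.85 CPM (−0.39, adjusted p = 3.5e-04), as did nrv2, a sodium pump subunit gene (−0.49, adjusted p = 2.1e-04). Of 10 glial markers 2 were higher and 2 lower. The share called was 40% of glial, 25% of fat body and 28.6% of hemocyte markers, beside 44.2% of all genes tested. Among markers of other cells there were 1 higher and 1 lower of 8 fat body genes (Ilp6 and AkhR), 1 higher and 1 lower of 7 hemocyte genes (NimC1 and Hml), and 0 called of 4 tracheal genes (0 at an unadjusted p under 0.05, and 0 with DESeq2 or limma-voom). The fat body count was 2 higher with DESeq2 or limma-voom and without control replicate 1 or 2 or REPTOR[ACT] replicate 1, 2 or 3, and 2 lower without control replicate 1, and the hemocyte count was 0 lower without control replicate 2 or with total library size (Hml, −0.24 with adjusted p = 0.0522, and −0.26 with adjusted p = 0.0553).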
